A study of Rattus norvegicus with 12 samples.

Results

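The fetal gene program is the set of heart muscle genes that are active before birth, are turned down in the adult, and come back in hearts under load or injury. Here it was followed through 5 rat genes chosen by their Ensembl IDs: Nppa (ENSRNOG00000008176), Nppb (ENSRNOG00000008141), Acta1 (ENSRNOG00000017786), Myh6 (ENSRNOG00000025757) and Myh7 (ENSRNOG00000016983), 5 of the 19955 genes in the deposited table. Of these, Myh6 is not a fetal gene but the adult form set against Myh7. RNA came from hearts of Sprague Dawley rats labelled WT, in 3 groups: a sham operation (sham), an operation to cause myocardial infarction (MI), and infarction with a patch sutured with silk thread to the edge of the infarct (Patch). The labels list 4 samples per group. By column name the table held 4 MI, 4 Patch and 2 sham libraries, each called here by its name in the table. A further 2 columns, ctrl1 and ctrl2, match no label and were not used. Whether they hold sham samples is not given in the sources used here. The Patch group differs from MI by the sutures as well as by the patch, and no group carried sutures alone. The age and sex of the rats, the time after surgery and the part of the heart taken are not given in the sources used here. Nothing says that each library is a separate animal, so the p-values measure only the spread between these libraries, which may be technical.

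Nppa and Nppb encode the precursors of atrial (ANP) and B-type (BNP) natriuretic peptide, hormones that heart muscle cells release when stretched and that promote salt and water loss and relax vessels. In the adult, Nppa is made mainly in the atria and is low in the ventricles, where it returns with overload or infarction. Acta1 encodes skeletal muscle alpha-actin, a fetal actin of the heart. Myh6 and Myh7 encode the alpha and beta myosin heavy chains, the fast and the slow motor of the heart muscle filament. The adult rodent ventricle makes mostly the alpha form, and a shift toward the beta form is the classic sign of the fetal program.

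In the RefSeq gene table of the GRCr8 assembly, Nppa and Nppb are neighbours on chromosome 5 and Myh6 and Myh7 are neighbours on chromosome 15, with 0 other genes between the members of either pair. The 250 bases before the start site of Nppa, Nppb and Acta1 are shown because the natriuretic peptide genes, though adjacent, differed in their values below, and Acta1 is the third gene usually read with them. The windows are RefSeq promoter sequence of build GRCr8, written in the direction of the gene: Nppa at chr5:163711934-163712183 (+ strand), Nppb at chr5:163699758-163700007 (+ strand) and Acta1 at chr19:68784195-68784444 (- strand). Capitals mark matches on either strand to 6 motifs. The Nppb window ends at a start site that lies inside the gene's annotated span. The start sites of Myh6 and Myh7 also lie inside the annotated spans of these genes, and their windows are not shown.
Nppa: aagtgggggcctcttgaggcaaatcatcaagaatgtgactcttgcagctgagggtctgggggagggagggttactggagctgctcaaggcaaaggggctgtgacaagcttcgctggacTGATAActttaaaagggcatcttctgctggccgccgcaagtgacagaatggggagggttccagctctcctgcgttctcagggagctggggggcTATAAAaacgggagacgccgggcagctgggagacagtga
Nppb: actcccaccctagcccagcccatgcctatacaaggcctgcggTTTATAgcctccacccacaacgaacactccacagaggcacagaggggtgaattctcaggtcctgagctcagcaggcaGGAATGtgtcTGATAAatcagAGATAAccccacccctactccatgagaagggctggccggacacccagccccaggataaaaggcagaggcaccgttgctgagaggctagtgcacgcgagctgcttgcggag
Acta1: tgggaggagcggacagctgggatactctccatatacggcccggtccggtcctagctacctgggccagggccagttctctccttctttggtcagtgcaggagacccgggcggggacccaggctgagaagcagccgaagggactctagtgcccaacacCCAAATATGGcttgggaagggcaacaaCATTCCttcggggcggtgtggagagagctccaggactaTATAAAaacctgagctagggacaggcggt

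The motifs were the GATA site (AGATAA or AGATAG or TGATAA or TGATAG), the M-CAT element (CATTCC), the TATA box (TATAAA), the Nkx2-5 element (TNAAGTG), the CArG box bound by serum response factor, and the MEF2 site. Nppa held 1 GATA match, TGATAA, with its first base 132 bases before the start, and 1 TATAAA match. Nppb held 2 GATA matches, at 121 and 110 bases before the start, 1 M-CAT match on the other strand, at 131 bases, and 1 TATA match on the other strand, TTTATA, at 208 bases. Acta1 held 1 CArG match, CCAAATATGG, at 94 bases, 1 M-CAT match at 67 bases and 1 TATAAA match at 29 bases. Of the 33469 windows of this length in the table, 27.0% held a GATA match, 12.1% an M-CAT match, 12.9% a TATA match, 9.89% an Nkx2-5 match, 2.96% a MEF2 match and 1.50% a CArG match. These matches describe the letters only and say nothing about binding.

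Values are the deposited signal, which was whole reads divided by 1 factor per library. The 10 libraries held 11420710 to 14110864 recovered reads. At this depth the least read value of any of the 5 genes rested on 1429 reads, so counting error was small beside the spread between libraries. MI2 stood apart from the other 9 libraries, with 5474 genes at 0 where they had 2400 to 3335. It had 169 genes with 1 read, where they had 632 to 979. The limma sample weight was lowest in MI2 (0.193) and next lowest in MI1 (0.385), against 0.9655 to 2.247 in the remaining libraries. Log2 differences between MI and another group are given with and without MI2. Myh6 and Myh7 were among the most read genes of each library, Myh6 at rank 2 to 35 and Myh7 at rank 1 to 24 of 19955, and both are defining genes of heart muscle. Markers of other cell types could not be read because the table does not pair its IDs with symbols. In bulk tissue, fewer cells of a type and less RNA per cell cannot be told apart.

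Nppa was the member that passed the test between MI and sham. Its signal was 1759 in sham1 and 4555 in sham2. In MI it was 48591 in MI1, 44675 in MI2, 21186 in MI162 and 26875 in MI165. Each MI value lay above both sham values, as it did in 17.1% of the 17091 genes tested. The mean rose from 3157 ± 1977 (SD, n = 2) to 35332 ± 13351 (SD, n = 4), 11.2 times the sham mean. Nppa moved from rank 1372 and 454 by signal in the sham libraries to between rank 9 and 34 in MI. On the log2(signal + 1) scale it rose by 3.56 (SE 0.54, 95% interval 2.36 to 4.75; limma adjusted p = 0.00655), the 126th largest rise of the 17091 genes. Of these genes 15.4% passed an adjusted p under 0.05 in either direction and 7.30% passed as higher in MI. Of the 5 members, 1 passed.

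The call for Nppa in MI depended on having both sham libraries. Without sham1 the log2 difference was 2.87 (limma adjusted p = 0.0924) and without sham2 it was 4.24 (limma adjusted p = 0.0505). In those fits the lone sham library is assumed to vary like the other groups, and 7 and 24 genes in all were called in place of 2636. Without MI2 the difference was 3.42 (limma adjusted p = 0.00189).

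**Figure D1:**
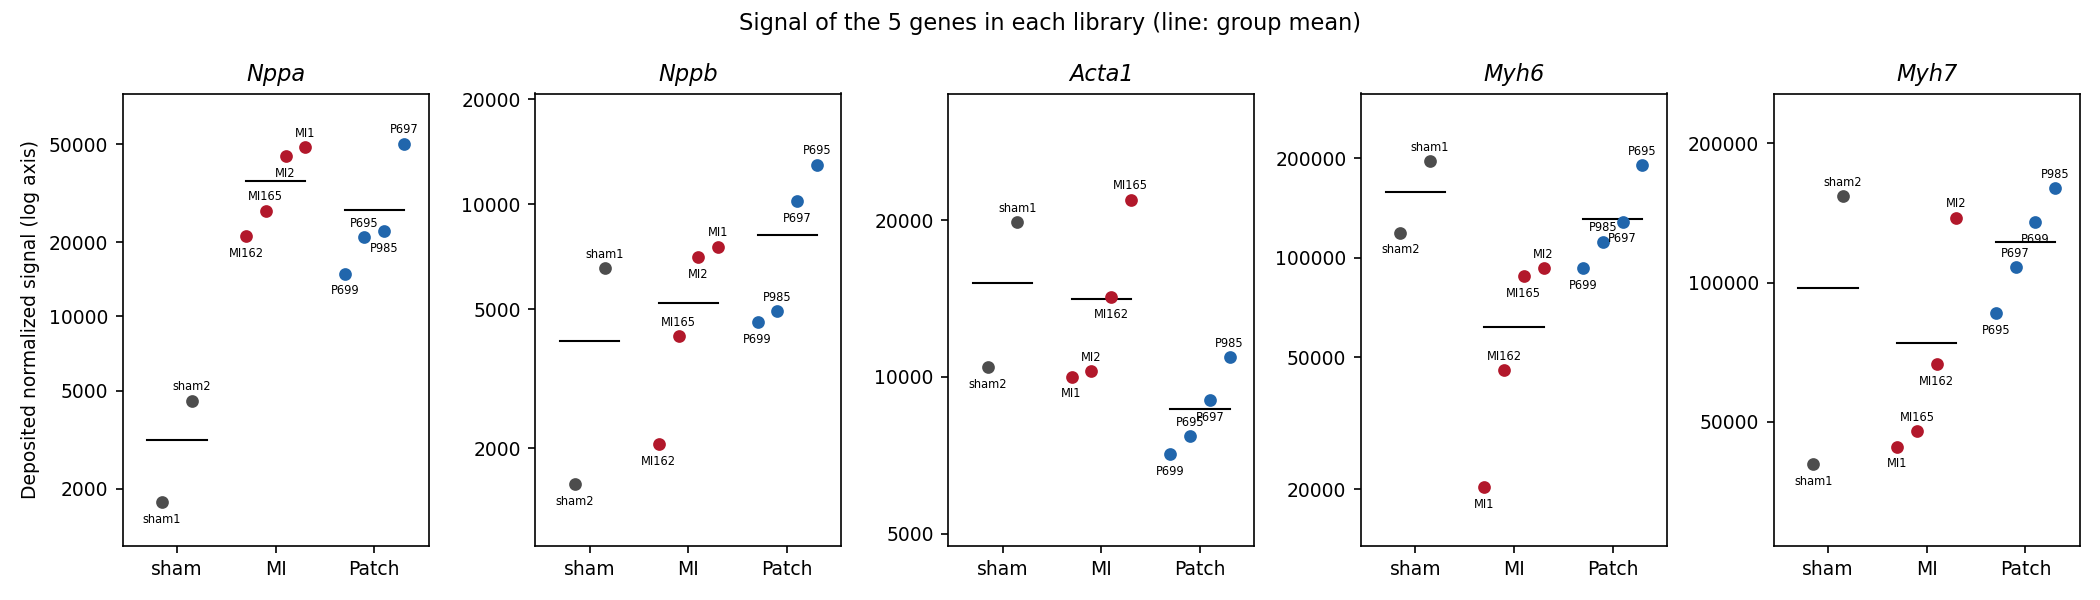
Deposited normalized signal (log axis, a separate range per gene) of Nppa, Nppb, Acta1, Myh6 and Myh7 in each of 2 sham, 4 MI and 4 Patch libraries; points are libraries, labelled by name, and lines are group means. Nppa lies at 1759 and 4555 in sham and at 14935 or more in the 8 MI and Patch libraries, and the sham libraries lie far apart in Nppb and Myh7.

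Nppa was also high with the patch. Its signal was 20934 in P695, 50267 in P697, 14935 in P699 and 22202 in P985. The values of 3 of these 4 libraries lay between 14935 and 22202, near the lower MI values, and P697 had the highest signal of all 10 libraries. As a percent of all reads, these 3 lay at 0.119% to 0.173%, below the MI libraries (0.188% to 0.436%), and P697, at 0.394%, lay within the MI range. The Patch mean was 27084 ± 15776 (SD, n = 4), below the MI mean by less than the SD of either group. The log2 difference between Patch and MI was -0.46 (SE 0.44, 95% interval -1.43 to 0.52; limma adjusted p = 0.521), where 13.2% of the genes passed. This interval holds both a fall to 0.371 times the MI level and a rise to 1.43 times, so equal levels in MI and Patch are not shown by it. The number of genes that passed, 2251 in all libraries, ran from 209 to 4821 with 1 library left out. Without MI2 the difference was -0.32 (limma adjusted p = 0.646), and with any 1 library left out it ran from -0.81 without P697 (limma adjusted p = 0.248) to -0.22 without P699 (limma adjusted p = 0.791).

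Against sham, Nppa was 3.10 higher on the log2 scale in Patch (SE 0.54, 95% interval 1.91 to 4.29), a fold of 8.58, and each Patch library lay above both sham libraries, as in 9.18% of the genes. This was the 19th largest rise and the 5th smallest unadjusted p (0.000130) of 17091 genes, but it did not pass after adjustment (limma adjusted p = 0.386). In this comparison limma called 0 genes (0% of 17091), with 524 (3.07%) at an unadjusted p under 0.05. edgeR called 0 genes and DESeq2 called 15. Nppa passed in DESeq2 (adjusted p = 1.99e-05) and in limma with sample weights (adjusted p = 0.0273). The log2 difference of Nppa between Patch and sham was 2.42 without sham1 and 3.79 without sham2. Over the 20 alternatives its adjusted p ran from 1.99e-05 to 1.00. The comparisons of Patch with MI and of each with sham share libraries, so their values are set side by side and not combined.

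Nppb, the neighbour of Nppa, passed the test in no comparison. Its signal was 6548 in sham1 and 1576 in sham2, so the sham libraries stood in the opposite order to their order for Nppa. In MI it was 7562 in MI1, 7053 in MI2, 2053 in MI162 and 4183 in MI165, a range that overlaps that of sham. In Patch it was 12981 in P695, 10186 in P697, 4606 in P699 and 4929 in P985. The highest values, P695 and P697, lay above all MI and sham libraries, and the lower Patch values lay within the MI range.

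The group means of Nppb stood in the order sham (4062 ± 3516, SD, n = 2), MI (5213 ± 2579, SD, n = 4) and Patch (8176 ± 4099, SD, n = 4). Neighbours in this order differed by less than the larger of their SDs, while the Patch and sham means differed by slightly more than the larger of theirs. The log2 difference was 0.53 for MI versus sham (95% interval -0.91 to 1.97; limma adjusted p = 0.627), 0.68 for Patch versus MI (95% interval -0.50 to 1.85; limma adjusted p = 0.423) and 1.20 for Patch versus sham (95% interval -0.24 to 2.64; limma adjusted p = 1.00). None of the 3 passed. The sign for MI versus sham turned with the sham library used, at 1.55 without sham1 and -0.50 without sham2, and Patch versus sham was 2.23 without sham1 and 0.18 without sham2. Without MI2 the differences of MI from sham and of Patch from MI were 0.32 and 0.88 (limma adjusted p = 0.757 and 0.276), and without MI162 they were 0.92 and 0.29 (limma adjusted p = 0.378 and 0.771).

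The ratio of the natriuretic peptides within a library does not depend on how that library was scaled. Nppa signal was 0.269 times Nppb signal in sham1 and 2.89 times in sham2. In MI the ratio was 6.43 in MI1, 6.33 in MI2, 10.3 in MI162 and 6.42 in MI165. In Patch it was 1.61 in P695, 4.93 in P697, 3.24 in P699 and 4.50 in P985. All 4 MI libraries, MI2 included, lay above all 4 Patch libraries and both sham libraries, and the Patch and sham ranges overlapped. On the log2 scale the ratio was 2.85 ± 0.35 (SD, n = 4) in MI, 1.72 ± 0.73 (SD, n = 4) in Patch and -0.18 ± 2.42 (SD, n = 2) in sham. These ratios are a description without a test, since the pair was looked at with its values known. How many other pairs of genes separate the MI libraries from the rest in the same way was not counted.

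**Figure D2:**
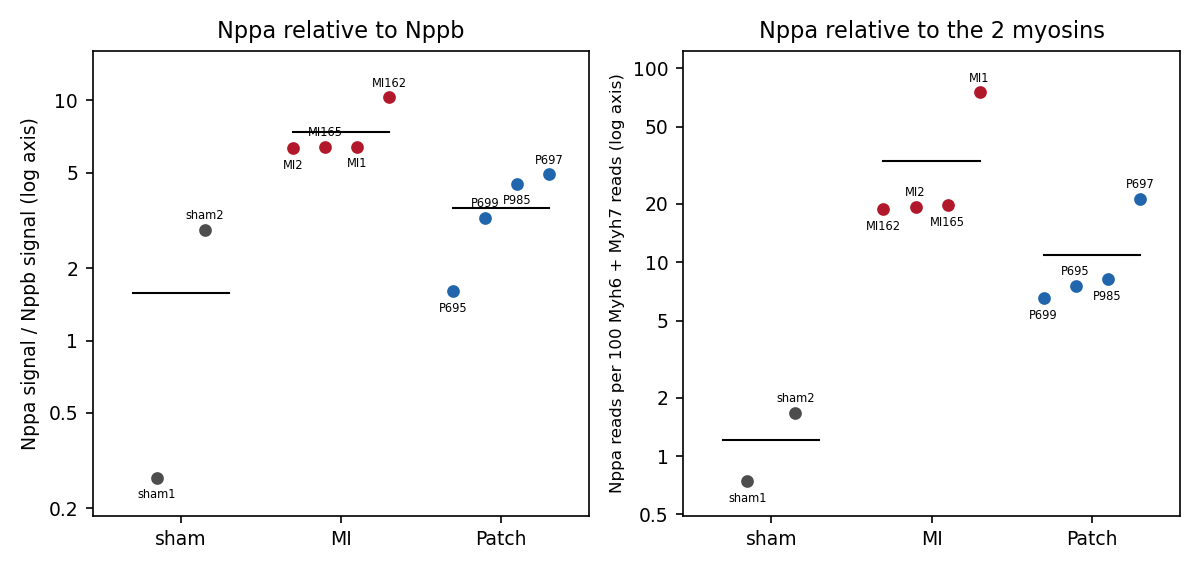
Left, Nppa signal divided by Nppb signal; right, Nppa reads per 100 reads of Myh6 and Myh7 together; both on log axes, with 1 point per library of sham, MI and Patch and lines for group means. The 4 MI ratios to Nppb, 6.33 to 10.3, lie above the Patch ratios, 1.61 to 4.93, while for the ratio to the myosins P697, at 21.2, lies within the MI range.

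Set against the myosin reads of the same library, Nppa was again lowest in sham, at 0.744 reads per 100 reads of Myh6 and Myh7 together in sham1 and 1.67 in sham2. Among the MI libraries it was 75.4 in MI1, 19.3 in MI2, 18.9 in MI162 and 19.8 in MI165. Among the Patch libraries it was 7.58 in P695, 21.2 in P697, 6.55 in P699 and 8.16 in P985. So 3 of the 4 Patch libraries lay below all MI libraries and above sham on this measure, and P697 lay among the MI libraries. Nppb per 100 myosin reads overlapped between the groups, at 0.577 to 2.77 in sham, 1.83 to 11.7 in MI and 1.81 to 4.70 in Patch. Acta1 per 100 myosin reads was 3.82 to 8.38 in sham, 4.43 to 16.1 in MI and 2.78 to 4.01 in Patch. The part that a change in the myosins plays in these ratios was not tested.

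Acta1 passed the test in no comparison. Its signal was 19804 in sham1 and 10437 in sham2. The MI libraries had 10011 in MI1, 10240 in MI2, 14227 in MI162 and 21868 in MI165, a range that covers both sham values. The Patch libraries had 7695 in P695, 9039 in P697, 7110 in P699 and 10900 in P985. The highest Patch value was 1.53 times the lowest, against 2.18 times in MI and 1.90 times in sham.

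The Acta1 means were 15121 ± 6623 (SD, n = 2) in sham, 8686 ± 1682 (SD, n = 4) in Patch and 14087 ± 5537 (SD, n = 4) in MI. Of the 4 Patch libraries, 3 lay below all MI and sham libraries, while P985 lay above MI1, MI2 and sham2. As a percent of all reads, P985 (0.0848%) lay just below MI2 (0.0852%) and MI1 (0.0898%), so all 4 Patch libraries lay below all MI libraries on that scale, as in 13.2% of the genes, and sham2 (0.0777%) lay below the MI range. The log2 difference between Patch and MI was -0.64 (SE 0.30, 95% interval -1.30 to 0.02; limma adjusted p = 0.175) and between Patch and sham -0.75 (SE 0.37, 95% interval -1.55 to 0.06; limma adjusted p = 1.00). For MI versus sham it was -0.11 (SE 0.37, 95% interval -0.91 to 0.70; limma adjusted p = 0.876), and this sign turned under 6 of 20 alternatives, among them scaling to total reads (0.14) and leaving out MI2 (0.02; limma adjusted p = 0.973). Patch versus MI was -0.77 without MI2 and -0.40 without MI165 (limma adjusted p = 0.0846 and 0.369), and Patch versus sham was -0.28 without sham1 and -1.21 without sham2. Acta1 shares long stretches of coding sequence with the other muscle actins, and how the counting treated reads that fit several genes is not given in the sources used here.

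Myh6 signal was lower in each MI library than in each sham library, and no difference passed the test. Its signal was 195838 in sham1 and 119156 in sham2. In MI it was 20264 in MI1, 93117 in MI2, 45705 in MI162 and 87896 in MI165. In Patch it was 190463 in P695, 128619 in P697, 93173 in P699 and 111946 in P985. Each MI value lay below both sham values, as in 18.6% of the genes, and each Patch value above each MI value, as in 9.81%. The nearest pair was P699 and MI2. As a percent of all reads the MI and Patch libraries overlapped, with P699 (0.744%) below MI2 (0.775%) and MI165 (0.785%), while all MI libraries remained below both sham libraries, as in 11.0% of the genes on this scale.

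The Myh6 mean was 157497 ± 54223 (SD, n = 2) in sham, 131050 ± 42172 (SD, n = 4) in Patch and 61745 ± 34862 (SD, n = 4) in MI. The MI mean was 0.392 times the sham mean. The log2 difference was -1.54 for MI versus sham (SE 0.74, 95% interval -3.17 to 0.08; limma adjusted p = 0.184) and 1.27 for Patch versus MI (SE 0.60, 95% interval -0.06 to 2.60; limma adjusted p = 0.181). For Patch versus sham it was -0.27 (SE 0.74, 95% interval -1.90 to 1.35; limma adjusted p = 1.00), and it was 0.09 without sham1 and -0.63 without sham2. DESeq2 put the first and the second past the threshold (adjusted p = 0.0337 and 0.0401). Without MI2 the differences were -1.82 and 1.54 (limma adjusted p = 0.0553 and 0.0532), and without MI1 they were -1.08 and 0.81 (limma adjusted p = 0.274 and 0.332). Over the 20 alternatives the adjusted p ran from 0.0337 to 0.555 for MI versus sham (0.725 with a replicate block in 4 libraries) and from 0.0401 to 0.424 for Patch versus MI.

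**Figure D3:**
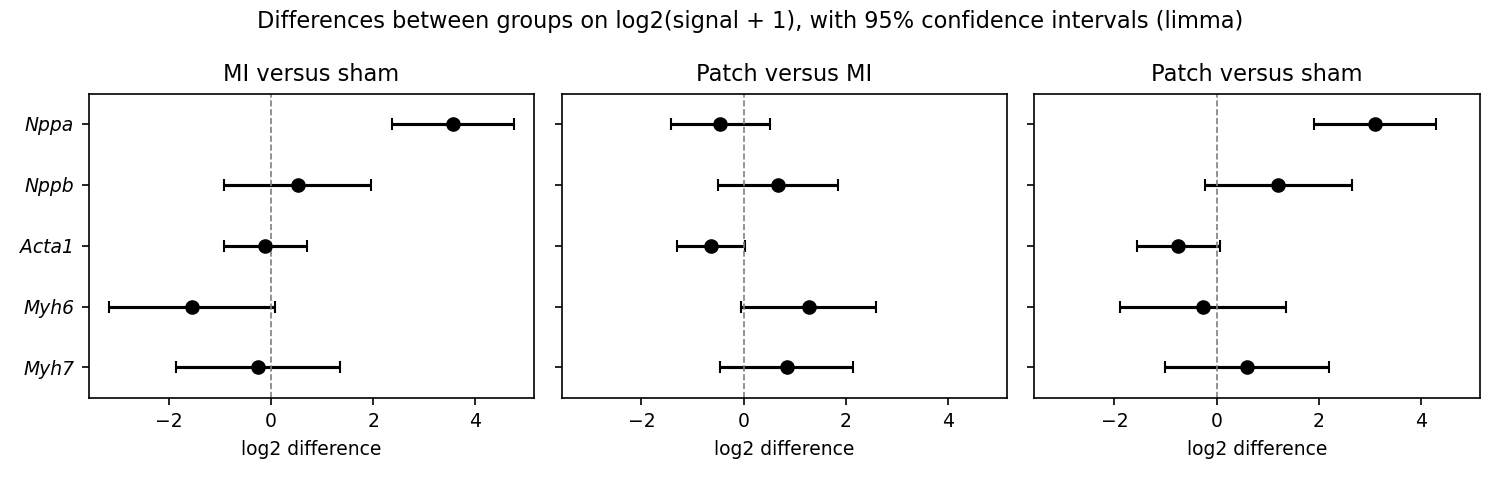
Differences between groups on log2(signal + 1) for the 5 genes, with 95% confidence intervals from the limma fit, with a panel for each of the 3 comparisons; the dashed line marks no difference. Nppa in MI versus sham (3.56) and in Patch versus sham (3.10) has an interval clear of 0, and the other 13 intervals include 0.

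Myh7, the beta chain, passed the test in no comparison, and its sham libraries lay far apart. Its signal was 40532 in sham1 and 153749 in sham2, so the sham libraries differed 3.79-fold from each other. The MI libraries had 44216 in MI1, 138002 in MI2, 66569 in MI162 and 47714 in MI165, all within the sham range by signal. The Patch libraries had 85868 in P695, 108047 in P697, 134898 in P699 and 160048 in P985. Apart from MI2, the values in MI lay below all Patch libraries.

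The Myh7 mean was 122215 ± 32218 (SD, n = 4) in Patch, 97140 ± 80056 (SD, n = 2) in sham and 74125 ± 43702 (SD, n = 4) in MI. Neighbours in this order differed by less than the larger of their SDs, while the Patch and MI means differed by more than the SD of either group. The log2 difference was -0.25 for MI versus sham (SE 0.73, 95% interval -1.85 to 1.35; limma adjusted p = 0.848), 0.84 for Patch versus MI (SE 0.59, 95% interval -0.46 to 2.15; limma adjusted p = 0.368) and 0.59 for Patch versus sham (SE 0.73, 95% interval -1.01 to 2.19; limma adjusted p = 1.00). For MI versus sham the difference was -1.21 without sham1, 0.71 without sham2 and -0.60 without MI2 (limma adjusted p = 0.474). For Patch versus sham it was -0.37 without sham1 and 1.55 without sham2. For Patch versus MI it was 1.19 without MI2 (limma adjusted p = 0.0940).

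The balance of the myosins was read as the Myh7 share of the reads of both genes. It was 17.1% in sham1 and 56.3% in sham2. In MI it was 68.6% in MI1, 59.7% in MI2, 59.3% in MI162 and 35.2% in MI165. In Patch it was 31.1% in P695, 45.7% in P697, 59.1% in P699 and 58.8% in P985. The ranges of the 3 groups overlapped, with means of 36.7 ± 27.7% (SD, n = 2) in sham, 48.7 ± 13.3% (SD, n = 4) in Patch and 55.7 ± 14.3% (SD, n = 4) in MI. The Myh7 share of sham2 was close to that of MI2, MI162, P699 and P985, and sham2 also had the higher Nppa of the sham libraries. Its Nppb (1576 against 6548) and Acta1 (10437 against 19804) were lower than those of sham1. The genes are close paralogs and were not corrected for length, so the split of reads between them is uncertain.

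**Figure D4:**
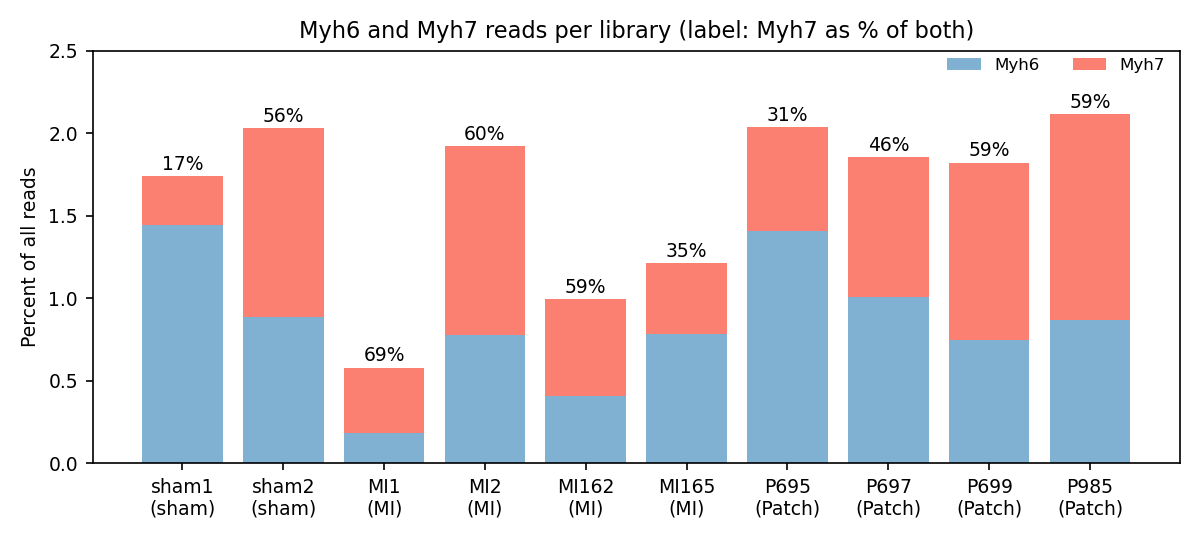
Percent of all reads of each library (bars, from 0) that came from Myh6 and from Myh7, stacked, for 2 sham, 4 MI and 4 Patch libraries; the number over each bar is Myh7 as a percent of both. The stacked height is 1.74% to 2.12% in sham and Patch and 0.579% to 1.21% in MI1, MI162 and MI165, with MI2 at 1.92%.

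The reads of the 2 myosins together varied little in sham and in Patch. They made up 1.74% of all reads in sham1 and 2.03% in sham2, and 2.04% in P695, 1.86% in P697, 1.82% in P699 and 2.12% in P985. In MI they made up 0.579% in MI1, 0.996% in MI162 and 1.21% in MI165, below all sham and Patch libraries, but 1.92% in MI2, within their range. The mean was 1.89 ± 0.205% (SD, n = 2) in sham, 1.96 ± 0.142% (SD, n = 4) in Patch and 1.18 ± 0.562% (SD, n = 4) in MI, and without MI2 the MI mean was 0.928 ± 0.321% (SD, n = 3). The sum is described without a test.

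The signs of the 5 differences were mixed in each comparison, and they remained mixed with Myh6 set aside. Myh6 is the adult form, and a shift toward the beta form would lower it while the fetal genes rise. The sign counts and medians below describe the 5 genes and are not a measure of the program. In MI versus sham 2 of the 5 differences were above 0 and 3 below, with a median of -0.11, where the median of all genes was 0.01. In Patch versus MI 3 were above 0 and 2 below, with a median of 0.68 where the median of all genes was 0.00, and 0 of the 5 passed (0 at an unadjusted p under 0.05, as 30.6% of all genes were). In Patch versus sham 3 were above 0 and 2 below, with a median of 0.59 where the median of all genes was 0.00, and 0 of the 5 passed, as 0% of all genes did (1, Nppa, at an unadjusted p under 0.05, as 3.07% of all genes were).

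**Figure D5:**
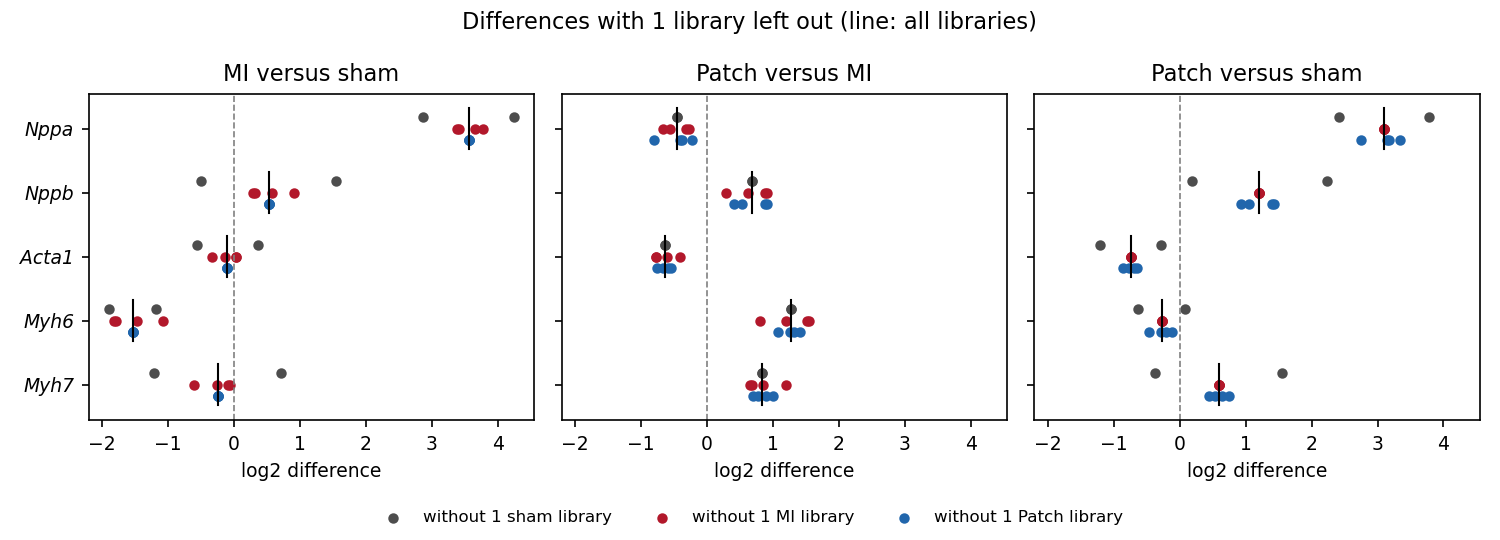
Log2 differences of the 5 genes in limma with 1 library left out at a time (points, coloured by the group of the library left out; lines mark the fit with all 10 libraries) for the 3 comparisons. Myh7 in MI versus sham lies at -1.21 without sham1 and at 0.71 without sham2, while Nppa in MI versus sham stayed at 2.87 or above.

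Likeness of pattern was measured as Pearson's r of log2(signal + 1) over the 10 libraries, among 11435 other genes whose signal averaged 50 or more, as a description without a test. The libraries share their groups, so genes that differ between groups correlate for that reason alone. The gene most like Nppa was ENSRNOG00000009329 (r = 0.938), which rose by 1.71 in MI versus sham on the log2 scale (limma adjusted p = 0.00603) and whose Patch-versus-MI difference was -0.13 (limma adjusted p = 0.706). The gene most like Myh6 was ENSRNOG00000020829 (r = 0.988), with a difference of -0.75 in MI versus sham (limma adjusted p = 0.0988) and 0.64 in Patch versus MI (limma adjusted p = 0.0902). The files do not pair these IDs with symbols. The closest genes to Nppb, Acta1 and Myh7 reached 0.869, 0.914 and 0.878. Between members the values were lower. For Nppa and Nppb r was 0.367, with 2466 genes more like Nppa than Nppb was. For Myh6 and Myh7 it was 0.306, with 4281 genes more like Myh6 than Myh7 was. Some other pairs of members were below 0, the lowest being Acta1 and Myh7 (-0.643) and Nppa and Myh6 (-0.496).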

How the data were processed

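RNA with a poly-A tail was selected, fragmented and made into cDNA libraries from random hexamers, per the labels' protocols, with no molecular identifiers named. The submitters' processing notes name HISAT2, SAMtools, featureCounts and DESeq2 and the build rn6. Strand setting and the treatment of reads shared between genes are not given in the sources used here, so a gene cannot be told apart from an antisense partner.

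The deposited table gives a normalized signal per Ensembl gene ID. Within each of the 10 libraries used, 100% of the values were whole multiples of 1 step (tolerance 0.1 reads), which gave whole reads. Dividing by 1 factor per library treats the bulk of the genes as unchanged. Columns were assigned to groups by name, and 2 columns (ctrl1 and ctrl2), whose names match no label, were not used. If they hold sham samples, sham values would differ with them. The planned 4 sham libraries were thus 2.

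Genes whose signal averaged 1 or more were kept (17091). limma 3.58.1 in R 4.3.3 was run on log2(signal + 1), with all 3 groups in 1 fit, a mean-variance trend and Benjamini-Hochberg adjustment over all genes. The signal scale understates changes of low genes. edgeR 4.0.16 and DESeq2 1.42.0 on whole reads, other pseudocounts, filters and scalings, sample weights, fits of 2 groups and leaving out each library were alternatives. The limma fits were tested on simulated data with known changes, for MI versus sham and Patch versus MI only. For MI versus sham (16966 genes) limma recovered 10.0% of genes changed 2-fold and 88.0% of those changed 4-fold. For Patch versus MI (16962 genes) it recovered 30.0% and 100%, with 4 and 8 false calls in these comparisons over all sizes. Python 3.11.15 computed ratios and figures.

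The members, the lists and the tests were chosen with earlier results of these data known. The naming rule was the 5 members in every library, listed genes that passed, and the genes most like each member. Of the table's IDs, 0 matched the RefSeq gene table, so symbols of the 5 members come from the choice of genes itself. For this reason 5 pathway lists, 9 marker lists, the Acta1 to Actc1 ratio and levels relative to cardiomyocyte markers were not analysed here, and genes alike are named by ID for Nppa and Myh6 only. Levels were not compared between genes per length. Ratios to the 2 myosins were added after the data had been seen.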

Additional observations from a re-analysis of the deposited data

Results flagged for a closer look

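Of 26 sets of 4 values (MI and Patch libraries, for the 5 signals, 6 ratios and 2 library measures), 5 held a library far from the other 3 (a gap to the nearest one that exceeded Dixon's 95% critical value), where chance flags about 5% of sets. The sets are related, since several use the same reads. MI162 had a Nppa to Nppb ratio of 10.3, where the next MI library had 6.43. MI1 had 75.4 Nppa reads per 100 myosin reads, where the next MI library had 19.8, and 11.7 Nppb reads per 100 myosin reads, where the next had 3.08; it also had the lowest Myh6 and Myh7 of the MI libraries. P697 had 21.2 Nppa reads per 100 myosin reads, where the next Patch library had 8.16. The number of genes at 0 was 5474 in MI2 and at most 2736 in the other MI libraries. The causes were not tested.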

How the results depend on the processing

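The numbers 1 and 2 in the column names of sham1, sham2, MI1 and MI2 may be replicate numbers of the labels, and no Patch column shares them. Nothing says that these numbers pair animals, and the deviations of same-numbered libraries correlated at 0.0232 over 16668 genes. In these 4 libraries, chosen after seeing the data, MI versus sham had 2 genes called without and 302 with the number as a replicate block (1 residual degree of freedom). Nppa was 4.04 higher in both fits (limma adjusted p = 0.142 without and 0.0195 with the block), and the other 4 genes kept their sign and did not pass. Beside these fits, each result had 20 alternatives, 10 of them leaving out 1 library. Nppa in MI versus sham kept its direction in all 20 and passed in 18; it lost its call without sham1 or sham2 (log2 2.87 to 4.24 over the libraries left out). Nppa in Patch versus sham passed with DESeq2 (3.10) and sample weights (3.15), and Myh6 passed with DESeq2 in MI versus sham (-1.36) and Patch versus MI (1.09). Signs turned for differences that did not pass: Acta1 in MI versus sham with total reads (0.14), quantile scaling (0.28) and sample weights (0.11), and from -0.57 to 0.36 with 1 library left out; Myh7 in MI versus sham with quantile scaling (0.57), and from -1.21 to 0.71 with 1 library left out; Nppb in MI versus sham, from -0.50 to 1.55; Myh6 in Patch versus sham, from -0.63 to 0.09 (0.0855 without sham1); and Myh7 in Patch versus sham, from -0.37 to 1.55. The Patch-versus-MI differences of the 5 genes kept their sign in all 20 but not their size, which ran from -0.93 to -0.14 for Nppa, 0.29 to 1.05 for Nppb, -0.93 to -0.40 for Acta1, 0.72 to 1.54 for Myh6 and 0.17 to 1.19 for Myh7. The causes were not tested.

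Genes called for MI versus sham were 2636, 599 with only the 2 groups compared and 5679 with sample weights, and 7 (without sham1) to 4979 (without MI2) with 1 library left out. For Patch versus MI they were 2251, 3701 in DESeq2, 1437 with the 2 groups and 5383 with weights, and 209 (without P695) to 4821 (without MI2). For Patch versus sham they were 0, 15 in DESeq2, 10 with weights, and 0 to 2 (without P695). Scaling to total reads moved the median of all genes to 0.24 in MI versus sham and -0.17 in Patch versus MI, and the share of higher calls to 73.5% and 30.2%, from 47.3% and 58.6%. Quantile scaling lowered the Myh6 differences most, to -0.72 and 0.72. The 5 genes had 1429 reads or more in each library.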
